A study of Sus scrofa with 12 samples.

Results

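The interferon-induced genes are a set of 39 listed genes that interferons switch on in most cell types, and they were followed here in pig liver. Members were the rows of the gene table whose symbol in the file was on that list, with no use of measured values, and 34 of the 39 listed symbols had such a row among 21169 gene rows. EIF2AK2 and GBP1 had a row without a symbol in the file, were named through the Ensembl identifier and are given beside the members. IFIT3, OAS1 and XAF1 were not analysed here. All 34 members passed the filter on low counts and were tested, IRF9 through the cold Bama livers alone.

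Interferons are secreted proteins that warn neighbouring cells of infection. Type I interferons signal through the receptor chains IFNAR1 and IFNAR2 and the kinases JAK1 and TYK2, which phosphorylate STAT proteins such as STAT2. With IRF9 these form the complex ISGF3, which binds the interferon-stimulated response element in the promoters of target genes, while interferon gamma signals through a receptor of its own. The products sense viral RNA, block translation, trap virus particles and modify proteins with ISG15 or ADP-ribose, and several of them, such as USP18, feed back on the pathway. In liver, hepatocytes, Kupffer cells and lymphocytes all carry these genes, and lymphocytes are the usual source of interferon gamma.

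The livers came from Hezuo pigs, a small breed of the cold Gansu plateau, and Bama pigs, a miniature breed of southern China. The stated aim was to find RNAs tied to the cold resistance of Hezuo pigs. There were 4 groups of 3 animals: Hezuo pigs in the cold (-15 ± 2 °C), Hezuo pigs at room temperature (23 ± 2 °C), Bama pigs in the cold and Bama pigs at room temperature. All received a balanced feed, and all livers were taken on day 15. The pigs are numbered 1 to 3 within each group, and values are given in that order.

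Gene counts totalled between 20041285 and 30188037 per library. The tissue label held, since ALB, the transcript of serum albumin, made up 1.53% to 12% of gene counts and all 9 rows of the hepatocyte marker list were tested. Pig 1 of the cold Bama group stood apart, with the lowest ALB share, the highest summed Kupffer cell and macrophage markers (5226 CPM, read counts scaled to a common library size) and the highest level of 30 of the 34 members. DDX3Y, a Y-linked gene, had 0 to 3 counts in the 3 Bama livers at room temperature and in pig 2 of the cold Bama group, and at least 1331 counts in the other 8 livers. At room temperature, breed and the presence of Y-linked RNA therefore cannot be told apart. In Bama pigs, cold and Y-linked RNA also largely coincided, since pig 2 was the 1 cold liver without it. The cold response of Bama pigs, its difference from that of Hezuo pigs and the average over breeds share this limit.

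Levels differed widely between members. On deposited FPKM, a scale per length of transcript, STAT2 averaged 195 FPKM over the 12 livers (149 to 229) and IFI6 averaged 176 FPKM (33.2 to 623). OAS2 at 43.1, DDX58 at 35.5, IFIT1 at 33.7 and IRF1 at 32.4 FPKM followed. OASL at 0.544 and IRF9 at 0.221 FPKM were the lowest. STAT2 also varied least, and IFI6 spanned more than any other highly expressed member.

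**Figure D1:**
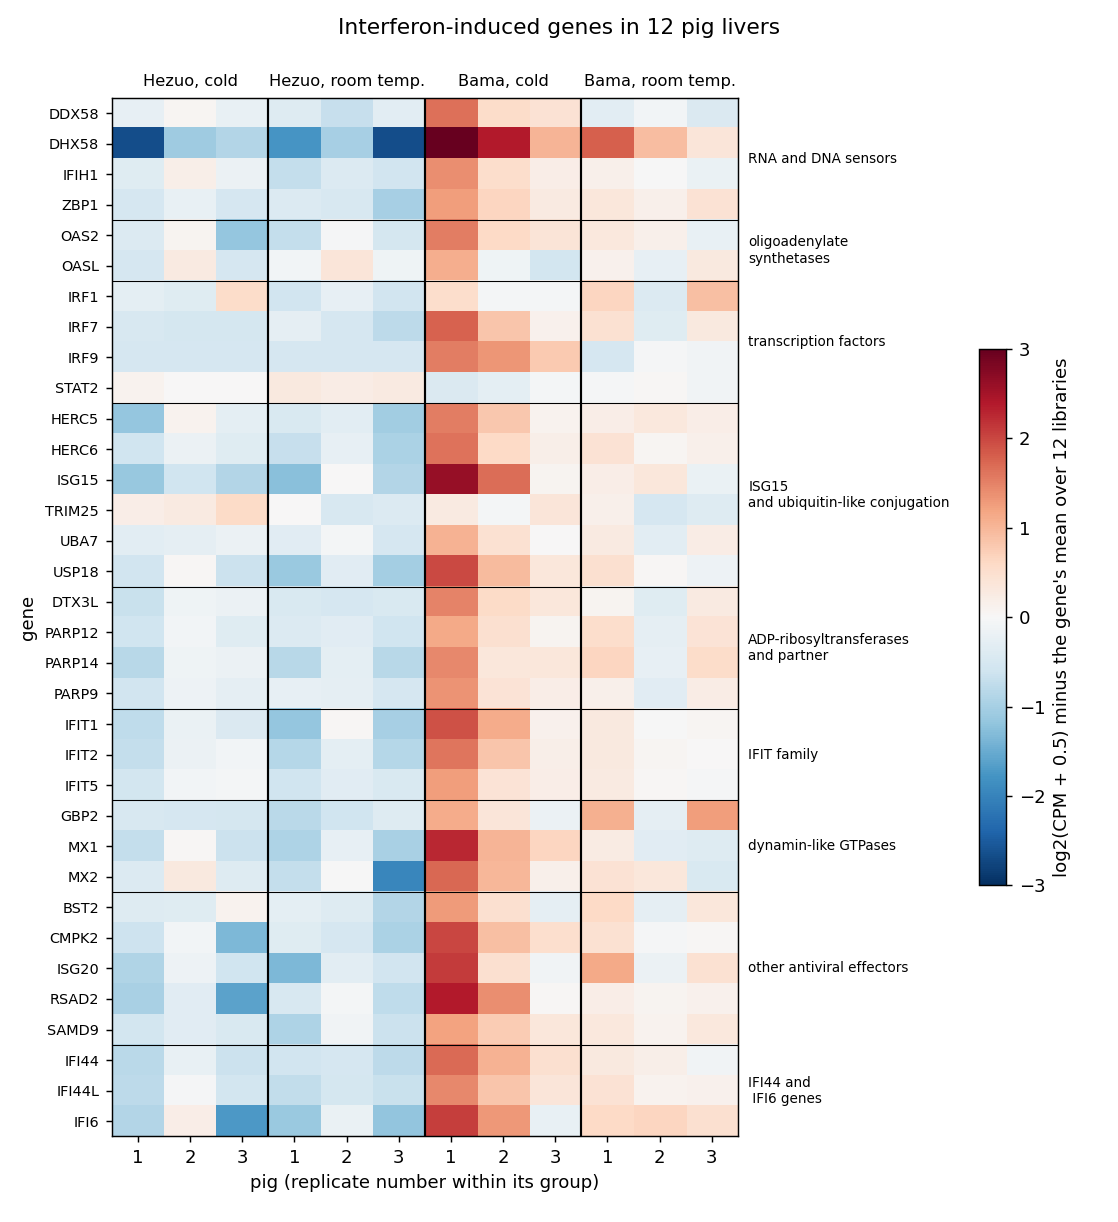
Heat map of the 34 members (rows, by role) in 12 livers (columns, by group and pig). Colour is log2(CPM + 0.5) minus the gene's mean over the 12 libraries, and the colour scale ends at 3 in either direction. Most rows are reddest in pig 1 of the cold Bama group and blue in Hezuo livers, while STAT2 and TRIM25 do not follow that pattern.

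The breeds were first compared in the cold. Of the 34 members, 12 were lower in Hezuo than in Bama livers at a Benjamini-Hochberg adjusted p below 0.05 over 13532 genes (edgeR quasi-likelihood test) and 0 were higher. They were the sensors DHX58 and ZBP1, the transcription factors IRF7 and IRF9, the modifier ISG15, DTX3L, MX1, the effectors CMPK2, RSAD2 and SAMD9, and IFI44 and IFI44L. These are 35.3% of the members, against 0.961% of all genes tested that were called lower and 2.76% called in either direction. IRF9 was bound to differ, since it passed the filter through the cold Bama livers alone. Without genes that passed so, 11 of 33 members were called lower (33.3%), against 0.955% of all genes, and the median log2 fold change of the 33 was -1.28. The log2 fold change, Hezuo over Bama, was negative for 32 of 34 members (50.7% of all genes tested) with a median of -1.29, against a median of -0.01 over all genes tested. An unadjusted p below 0.05 was reached by 30 members, all lower (9.92% of all genes tested). DESeq2 called 27 members lower. Of all 21169 gene rows it called 491 lower and 5.69% in either direction. Those rows include genes that the filter on low counts removed, here and in the DESeq2 shares below. In 26 members every Hezuo value lay below every Bama value, which held for 12.9% of all genes tested.

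The calls depended on single libraries. With all libraries but 1, between 0 and 24 members were called. The count was 0 without Hezuo cold pig 3, and 1 (IFI44) without Hezuo cold pig 1 or without Bama cold pig 1. It was 3 without Hezuo cold pig 2 (CMPK2, IFI44 and IFI44L), 3 without Bama cold pig 2 (IFI44, IFI44L and SAMD9), 6 without Hezuo room-temperature pig 1 and 24 without Bama cold pig 3. Of those 12 fits, IFI44 was called in 11, IFI44L in 9, SAMD9 in 8, CMPK2, IRF9, ISG15 and ZBP1 in 7, RSAD2 in 6, MX1 in 4, DHX58 and IRF7 in 3 and DTX3L in 2. The median log2 fold change without Bama cold pig 1 was -0.86, with 30 of 34 members negative. With Y-linked RNA as a covariate the same 3 members, IFI44, IFI44L and SAMD9, were called and the median was -1.35. Y-linked RNA varied within a group only through Bama cold pig 2. For this comparison the covariate therefore repeats the fit without that pig, whose median was also -1.35, and is no separate check.

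Marker lists of other cells went in both directions between the breeds in the cold. The hepatocyte, B and plasma cell and neutrophil lists had a positive median log2 fold change, Hezuo over Bama (0.73, 0.40 and 0.57). Of their rows edgeR called 0, and DESeq2 called SERPINA1, TF and TTR of the hepatocyte list and CD79A of the B and plasma cell list. By summed CPM, however, the B and plasma cell list had a lower median in Hezuo cold than in Bama cold livers (52.4 against 74.3 CPM). So had the neutrophil list (11.9 against 22.2 CPM), and the sums of both lists overlapped between the breeds. KDR of the endothelial list and LRAT of the stellate and mesenchymal list were called higher in Hezuo by edgeR. The T and NK cell list (14 rows, none at 0 in any group) summed to between 99 and 136 CPM in Hezuo cold livers, against 187 to 284 CPM in Bama cold livers. Its median log2 fold change was -0.95. By edgeR 2 of its 14 rows, CD8A and CD5, were called lower in Hezuo and 10 had an unadjusted p below 0.05. DESeq2 called 6 (CD2, CD4, CD5, CD8A, GZMA and GZMB). The dendritic cell list (4 rows, none at 0) summed to between 32.4 and 40.3 CPM in Hezuo cold livers, against 61.1 to 77.0 CPM in Bama cold livers, with 0 of 4 rows called by edgeR, 4 below an unadjusted p of 0.05 and 2 (TCF4 and XCR1) called by DESeq2. The Kupffer cell and macrophage list (10 rows, none at 0) overlapped, at 2024 to 3894 CPM in Hezuo cold livers and 2931 to 5226 CPM in Bama cold livers, with 0 of 10 rows called by edgeR or DESeq2 and 0 below an unadjusted p of 0.05. The part of these cells in the result was not tested, and in bulk liver fewer cells of a type and less RNA per cell cannot be told apart.

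**Figure D2:**
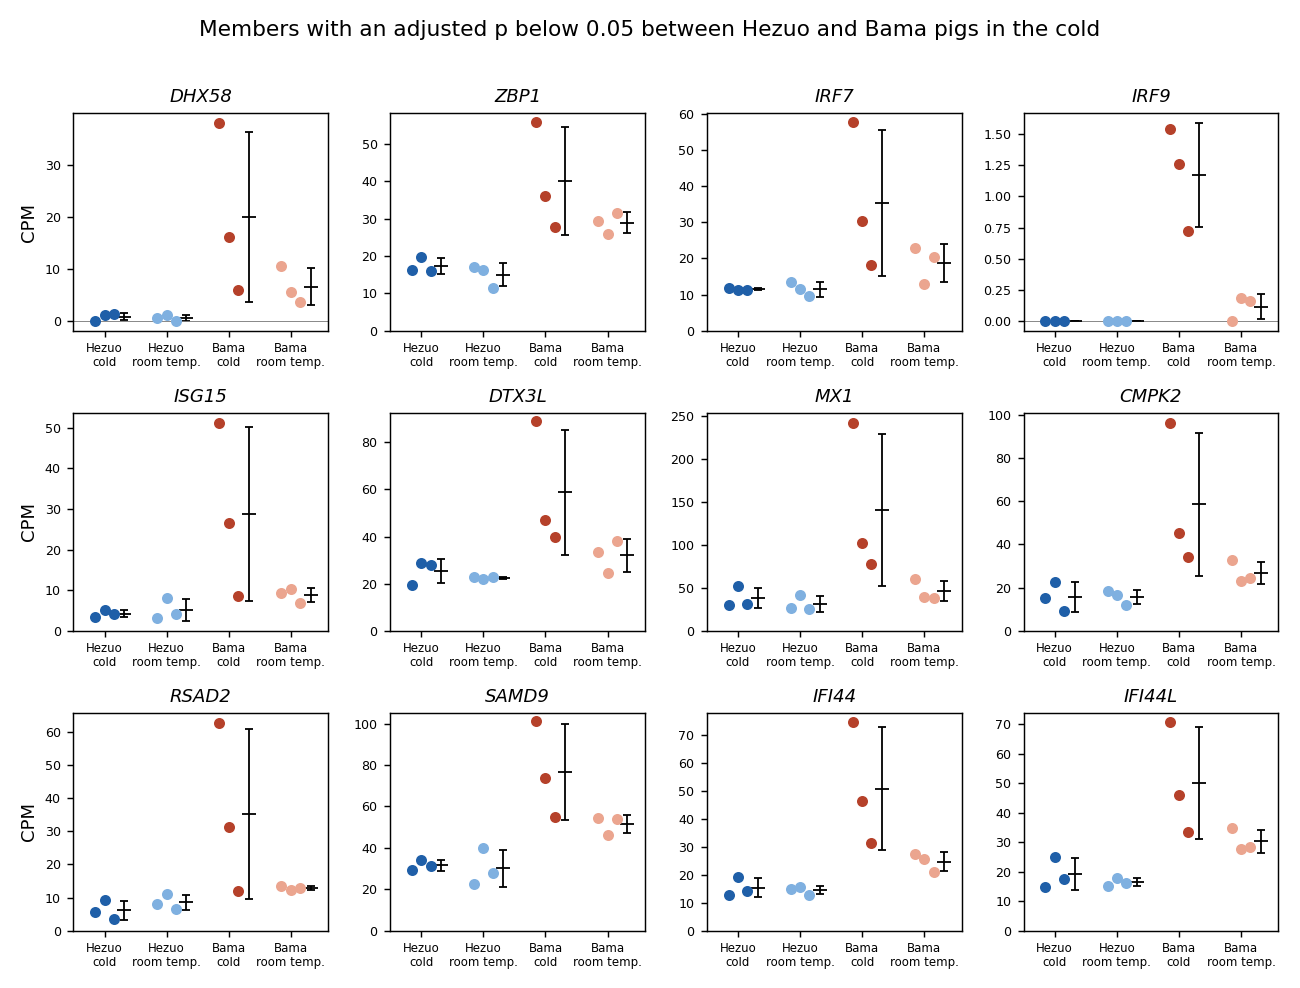
The 12 members called between Hezuo and Bama pigs in the cold, with CPM in each liver (points, pigs 1 to 3 from left to right) and the mean ± SD of each group (black bars, n = 3). Within the cold Bama group pig 1 is the highest and pig 3 the lowest for all 12 genes.

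Among the RNA and DNA sensors, all 4 members had negative log2 fold changes in the cold and 2 were called. DHX58 encodes LGP2, a helicase that tunes the RNA sensors RIG-I and MDA5. In the cold, DHX58 had 0, 1.03 and 1.22 CPM in Hezuo livers, against 38.0, 16 and 5.94 CPM in Bama livers. At room temperature, DHX58 had 0.431, 1.09 and 0 CPM in Hezuo livers, against 10.5, 5.53 and 3.63 CPM in Bama livers. The breeds did not overlap at either temperature, and 2 Hezuo livers had no DHX58 count. DHX58 counts were fractional in 10 of 12 libraries and those of DDX58 in 11. The log2 fold change was -4.69 ± 1.04 in the cold (SE, adjusted p = 0.0439) and -3.67 ± 1.07 at room temperature (adjusted p = 0.107).

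ZBP1 encodes a sensor of Z-form nucleic acid that can start cell death. In the cold, ZBP1 had 16.2, 19.8 and 16 CPM in Hezuo livers, against 56.0, 36.1 and 27.9 CPM in Bama livers. At room temperature, ZBP1 had 17.2, 16.3 and 11.4 CPM in Hezuo livers, against 29.5, 25.9 and 31.5 CPM in Bama livers. All 6 Hezuo livers lay below all 6 Bama livers. Its log2 fold change was -1.21 ± 0.24 in the cold (adjusted p = 0.0268) and -0.95 ± 0.24 at room temperature (adjusted p = 0.0696).

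DDX58 encodes RIG-I, the sensor of 5′-triphosphate RNA, and IFIH1 encodes MDA5, the sensor of long double-stranded RNA. In the cold, DDX58 had 74.9, 93.1 and 75.7 CPM in Hezuo livers, against 282, 130 and 120 CPM in Bama livers. At room temperature, DDX58 had 67.2, 54.8 and 70.9 CPM in Hezuo livers, against 70.8, 84.0 and 65.5 CPM in Bama livers. The breeds were apart in the cold, where the log2 fold change was -1.13 ± 0.28 and missed the threshold (adjusted p = 0.0543), and overlapped at room temperature. IFIH1 ran from 22.4 to 32.6 CPM in Hezuo cold livers, against 33.6 to 77.2 CPM in Bama cold livers (adjusted p = 0.0797). EIF2AK2, the RNA-activated kinase PKR that halts translation, had 50.8, 77.1 and 60.4 CPM in Hezuo cold livers, against 203, 129 and 136 CPM in Bama cold livers, and was lower in Hezuo by a log2 fold change of -1.31 ± 0.21 (adjusted p = 0.0121). That call was lost only without Hezuo cold pig 3 among the fits that each left out 1 library (adjusted p = 0.0528).

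The oligoadenylate synthetases make the signal that activates RNase L, and OASL acts beside RIG-I in human cells. In the cold, OAS2 had 103, 144 and 60.8 CPM in Hezuo livers, against 395, 206 and 178 CPM in Bama livers. At room temperature, OAS2 had 82.9, 133 and 94.9 CPM in Hezuo livers, against 169, 152 and 117 CPM in Bama livers. The cold groups did not overlap, but the difference was not called (-1.34 ± 0.36, adjusted p = 0.0663). OASL was close to the detection limit, with 0.333, 0.905 and 0.327 CPM in Hezuo cold livers, 0.604, 0.998 and 0.574 CPM in Hezuo room-temperature livers, 2.00, 0.575 and 0.295 CPM in Bama cold livers and 0.786, 0.482 and 0.947 CPM in Bama room-temperature livers. Its groups overlapped, and its sign in the cold turned without Bama cold pig 1.

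The transcription factors did not move as 1 group. IRF7, which amplifies type I interferon production, was called. In the cold, IRF7 had 11.8, 11.3 and 11.3 CPM in Hezuo livers, against 57.7, 30.2 and 18.1 CPM in Bama livers. At room temperature, IRF7 had 13.6, 11.5 and 9.47 CPM in Hezuo livers, against 22.8, 12.9 and 20.5 CPM in Bama livers. The Hezuo cold livers were nearly identical to each other, while the Bama cold livers spread widely. Its log2 fold change was -1.62 ± 0.36 in the cold (adjusted p = 0.0391) and -0.70 ± 0.35 at room temperature (adjusted p = 0.300), where the breeds overlapped.

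IRF9, the DNA-binding part of ISGF3, had 0 counts in all 6 Hezuo livers. It had 37, 35 and 22 counts in Bama cold livers, or 1.54, 1.26 and 0.722 CPM, and 0, 0.185 and 0.158 CPM in Bama room-temperature livers. Set against a floor of 3 counts per library, it was at least 8.93-fold lower in Hezuo than in Bama livers in the cold. Its adjusted p of 0.0334 is given as a description, since IRF9 entered the test through the cold Bama livers alone. The fitted log2 fold change of a gene at 0 depends on the prior count and is no bound, and no fold was given at room temperature, where both breeds lay near or under the floor. In 4 libraries the IRF9 count was fractional, that is, shared out by an estimate. The part of read assignment in the 0 counts and in this bound was not tested.

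STAT2, a subunit of ISGF3, ran the other way. In the cold, STAT2 had 747, 695 and 697 CPM in Hezuo livers, against 510, 566 and 670 CPM in Bama livers. At room temperature, STAT2 had 845, 814 and 831 CPM in Hezuo livers, against 679, 707 and 650 CPM in Bama livers. Hezuo livers lay above Bama livers at both temperatures, but the log2 fold change of 0.29 ± 0.14 was not called in the cold (adjusted p = 0.250), and with library totals alone as the scale it was -0.01. STAT2 counts were fractional in 11 of 12 libraries, and the gene overlaps IL23A in the RefSeq annotation of Sscrofa11.1. The part of read assignment in its level was not tested.

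IRF1, a factor that interferon gamma induces, was highest at room temperature in 2 Bama livers. In the cold, IRF1 had 55.5, 52.6 and 99.8 CPM in Hezuo livers, against 98.1, 65.4 and 66.0 CPM in Bama livers. At room temperature, IRF1 had 45.6, 57.2 and 45.6 CPM in Hezuo livers, against 107, 50.9 and 129 CPM in Bama livers. The breeds overlapped at both temperatures, with a log2 fold change of -0.14 ± 0.33 in the cold (adjusted p = 0.852) and -0.95 ± 0.34 at room temperature (adjusted p = 0.155).

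Of the ISG15 pathway, 1 of 6 members was called. ISG15 encodes a ubiquitin-like protein that is joined to other proteins by the activating enzyme UBA7 and ligases such as HERC5, and USP18 removes it. In the cold, ISG15 had 3.33, 5.09 and 4.08 CPM in Hezuo livers, against 51.2, 26.5 and 8.43 CPM in Bama livers. At room temperature, ISG15 had 3.06, 8.08 and 4.07 CPM in Hezuo livers, against 9.24, 10.2 and 6.91 CPM in Bama livers. The cold groups did not overlap, and the log2 fold change was -2.78 ± 0.57 (adjusted p = 0.0319), against -0.79 ± 0.55 at room temperature, where the groups overlapped (adjusted p = 0.460).

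USP18, which also blocks the receptor chain IFNAR2, missed the threshold narrowly. In the cold, USP18 had 3.80, 5.99 and 3.55 CPM in Hezuo livers, against 24.8, 11.9 and 7.61 CPM in Bama livers. At room temperature, USP18 had 2.46, 4.54 and 2.63 CPM in Hezuo livers, against 8.36, 6.05 and 5.27 CPM in Bama livers. The breeds did not overlap at either temperature, with a log2 fold change of -1.73 ± 0.42 in the cold (adjusted p = 0.0508) and -1.03 ± 0.42 at room temperature (adjusted p = 0.206).

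HERC6, the main ISG15 ligase in mice, had a like pattern. In the cold, HERC6 had 29.2, 39.2 and 34.5 CPM in Hezuo livers, against 138, 67.3 and 50.4 CPM in Bama livers. At room temperature, HERC6 had 27.4, 37.6 and 23.0 CPM in Hezuo livers, against 60.1, 46.5 and 49.7 CPM in Bama livers. The breeds were apart at both temperatures, with -1.31 ± 0.32 in the cold (adjusted p = 0.0537). HERC5 averaged 14.5 ± 6.05 CPM in Hezuo cold livers and 36.3 ± 18 CPM in Bama cold livers (SD, n = 3 each, adjusted p = 0.0810), and UBA7 from 8.37 to 9.22 CPM, against 10.6 to 22.1 CPM (adjusted p = 0.0869).

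TRIM25, the ubiquitin ligase that activates RIG-I, showed no breed difference but the smallest unadjusted p of the members for the cold response of Hezuo pigs. In Hezuo pigs, TRIM25 had 48.6, 50.9 and 63.4 CPM in the cold, against 42.8, 30.3 and 31.8 CPM at room temperature. In Bama pigs, TRIM25 had 51.4, 40.8 and 54.4 CPM in the cold, against 46.9, 29.5 and 32.2 CPM at room temperature. The temperatures did not overlap in Hezuo livers and overlapped in Bama livers. The log2 fold change, cold over room temperature, was 0.63 ± 0.20 in Hezuo (adjusted p = 0.184), 0.43 ± 0.20 in Bama (adjusted p = 0.327) and 0.53 ± 0.14 averaged over both breeds (adjusted p = 0.0588).

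PARP9, PARP12 and PARP14 are ADP-ribosyltransferases, and DTX3L is a ubiquitin ligase that works as a heterodimer with PARP9. In the cold, DTX3L had 19.6, 28.9 and 28.0 CPM in Hezuo livers, against 88.9, 47.2 and 40.0 CPM in Bama livers. At room temperature, DTX3L had 22.8, 22.0 and 22.7 CPM in Hezuo livers, against 33.5, 24.4 and 38.2 CPM in Bama livers. The groups were apart at both temperatures, and DTX3L was called in the cold (-1.20 ± 0.28, adjusted p = 0.0449), the 1 call among these 4 members. DTX3L overlaps PARP9 in the RefSeq annotation, and PARP9 ran from 15.4 to 20.6 CPM in Hezuo cold livers, against 26.4 to 59.0 CPM in Bama cold livers (adjusted p = 0.0557).

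In the cold, PARP14 had 24.8, 40.7 and 39.7 CPM in Hezuo livers, against 121, 56.6 and 56.1 CPM in Bama livers. At room temperature, PARP14 had 24.6, 36.5 and 25.0 CPM in Hezuo livers, against 70.4, 37.6 and 65.8 CPM in Bama livers. The breeds did not overlap at either temperature, and neither difference was called (-1.15 ± 0.34 in the cold, adjusted p = 0.0938, and -1.01 ± 0.34 at room temperature, adjusted p = 0.142). PARP12 ran from 19.3 to 27.4 CPM in Hezuo cold livers, against 30.9 to 64.9 CPM in Bama cold livers (adjusted p = 0.0708).

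The IFIT proteins bind viral RNA that lacks the cap of host messenger RNA. In the cold, IFIT1 had 34.4, 51.1 and 43.6 CPM in Hezuo livers, against 222, 129 and 64.9 CPM in Bama livers. At room temperature, IFIT1 had 26.1, 60.9 and 29.5 CPM in Hezuo livers, against 72.9, 58.5 and 61.3 CPM in Bama livers. The cold groups were apart, and Hezuo pig 2 overlapped the Bama livers at room temperature. In the cold, IFIT2 had 23.2, 33.8 and 36.6 CPM in Hezuo livers, against 118, 69.2 and 43.8 CPM in Bama livers. At room temperature, IFIT2 had 21.2, 31.6 and 21.1 CPM in Hezuo livers, against 47.2, 40.2 and 38.6 CPM in Bama livers. None of the 3 IFIT members was called in the cold, with -1.69 ± 0.42 for IFIT1 (adjusted p = 0.0568), -1.30 ± 0.32 for IFIT2 (adjusted p = 0.0529) and -0.92 ± 0.25 for IFIT5 (adjusted p = 0.0645). IFIT1 and IFIT2 overlap LIPA in the RefSeq annotation, as DDX58 overlaps ACO1.

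The dynamin-like GTPases MX1 and MX2 form rings that block virus replication, and GBP2 attacks the membranes around pathogens. In the cold, MX1 had 30.4, 51.5 and 31.6 CPM in Hezuo livers, against 242, 102 and 77.8 CPM in Bama livers. At room temperature, MX1 had 26, 41.9 and 25.3 CPM in Hezuo livers, against 59.6, 39.7 and 38.4 CPM in Bama livers. MX1 was lower in Hezuo in the cold (-1.89 ± 0.41, adjusted p = 0.0395), and at room temperature Hezuo pig 2 lay within the Bama range (-0.56 ± 0.40, adjusted p = 0.477).

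In the cold, MX2 had 62.4, 102 and 64.1 CPM in Hezuo livers, against 275, 168 and 92.8 CPM in Bama livers. At room temperature, MX2 had 50.4, 82.2 and 21.2 CPM in Hezuo livers, against 113, 105 and 60.5 CPM in Bama livers. The breeds overlapped at both temperatures, and MX2 was not called (-1.23 ± 0.49 in the cold, adjusted p = 0.187). GBP2 had its highest values in 2 Bama livers at room temperature and in Bama cold pig 1. In the cold, GBP2 had 7.13, 6.90 and 6.78 CPM in Hezuo livers, against 22.5, 13 and 8.79 CPM in Bama livers. At room temperature, GBP2 had 5.52, 6.44 and 7.56 CPM in Hezuo livers, against 21.7, 8.24 and 24.8 CPM in Bama livers. All Hezuo livers were below all Bama livers, with a log2 fold change of -1.09 ± 0.39 in the cold (adjusted p = 0.149) and -1.49 ± 0.40 at room temperature (adjusted p = 0.0858). GBP1 had 48.5, 67.9 and 55.2 CPM in Hezuo cold livers, against 198, 99.8 and 99.9 CPM in Bama cold livers, and 36.9, 61.4 and 52.7 CPM in Hezuo livers at room temperature, against 189, 52.3 and 236 CPM in Bama livers. It was not called in either comparison (adjusted p = 0.173 in the cold and 0.103 at room temperature).

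Of the other antiviral effectors, 3 of 5 were called in the cold. RSAD2 encodes viperin, which makes a chain-terminating ribonucleotide. In the cold, RSAD2 had 5.70, 9.18 and 3.51 CPM in Hezuo livers, against 62.7, 31.2 and 12 CPM in Bama livers. At room temperature, RSAD2 had 8.15, 11.1 and 6.65 CPM in Hezuo livers, against 13.5, 12.4 and 12.8 CPM in Bama livers. The groups were apart at both temperatures, with -2.52 ± 0.52 in the cold (adjusted p = 0.0331) and -0.58 ± 0.50 at room temperature (adjusted p = 0.562).

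CMPK2, a mitochondrial nucleotide kinase that neighbours RSAD2, behaved alike. In the cold, CMPK2 had 15.2, 22.6 and 9.02 CPM in Hezuo livers, against 96.5, 45.1 and 34.1 CPM in Bama livers. At room temperature, CMPK2 had 18.5, 16.6 and 12.1 CPM in Hezuo livers, against 32.8, 23.1 and 24.5 CPM in Bama livers. The groups were again apart at both temperatures, and the log2 fold change was -1.91 ± 0.41 in the cold (adjusted p = 0.0356) and -0.77 ± 0.40 at room temperature (adjusted p = 0.318).

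SAMD9 encodes a cytoplasmic protein that restricts poxviruses. In the cold, SAMD9 had 29.2, 34.1 and 31.2 CPM in Hezuo livers, against 101, 73.7 and 54.8 CPM in Bama livers. At room temperature, SAMD9 had 22.5, 40.1 and 27.7 CPM in Hezuo livers, against 54.3, 46.4 and 54.0 CPM in Bama livers. No Hezuo liver reached a Bama liver, and the log2 fold change was -1.28 ± 0.23 in the cold (adjusted p = 0.0216) and -0.78 ± 0.23 at room temperature (adjusted p = 0.107).

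BST2, or tetherin, holds budding virus at the cell surface, and ISG20 is an exonuclease of single-stranded RNA. In the cold, BST2 had 16, 16.2 and 22.7 CPM in Hezuo livers, against 52.0, 29.7 and 17.5 CPM in Bama livers. At room temperature, BST2 had 17.2, 15.9 and 11.2 CPM in Hezuo livers, against 32.3, 17.5 and 27 CPM in Bama livers. BST2 overlapped in the cold and was not called (-0.85 ± 0.36, adjusted p = 0.202). In the cold, ISG20 had 0.475, 1.12 and 0.694 CPM in Hezuo livers, against 7.29, 2.01 and 1.18 CPM in Bama livers. At room temperature, ISG20 had 0.216, 0.953 and 0.717 CPM in Hezuo livers, against 3.49, 1.11 and 1.99 CPM in Bama livers. ISG20 was low throughout, its groups did not overlap, and it was not called (-2.18 ± 0.73 in the cold, adjusted p = 0.122).

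IFI44 and IFI44L, a pair of related genes with antiviral activity in human cells, were both called. In the cold, IFI44 had 12.6, 19.2 and 14.2 CPM in Hezuo livers, against 74.8, 46.6 and 31.4 CPM in Bama livers. At room temperature, IFI44 had 14.9, 15.7 and 12.9 CPM in Hezuo livers, against 27.5, 25.5 and 20.9 CPM in Bama livers. Every Hezuo liver was below every Bama liver, and the log2 fold change in the cold, -1.73 ± 0.27, had the smallest adjusted p of the members (0.0121). The call held in 11 of the 12 fits that each left out 1 library, with an adjusted p of 0.0528 without Hezuo cold pig 3.

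In the cold, IFI44L had 14.8, 25.1 and 17.6 CPM in Hezuo livers, against 70.9, 46.1 and 33.4 CPM in Bama livers. At room temperature, IFI44L had 15.3, 17.9 and 16 CPM in Hezuo livers, against 34.8, 27.7 and 28.3 CPM in Bama livers. The breeds did not overlap, and the log2 fold change was -1.39 ± 0.26 in the cold (adjusted p = 0.0238). IFI6 encodes a small protein of the endoplasmic reticulum and mitochondria. In the cold, IFI6 had 49.4, 106 and 27.4 CPM in Hezuo livers, against 386, 229 and 78.6 CPM in Bama livers. At room temperature, IFI6 had 42.3, 80.6 and 40.5 CPM in Hezuo livers, against 140, 145 and 129 CPM in Bama livers. Its cold groups overlapped through Hezuo pig 2, and it was not called there (-1.93 ± 0.58, adjusted p = 0.0950) or at room temperature (-1.34 ± 0.57, adjusted p = 0.224), where the groups were apart.

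**Figure D3:**
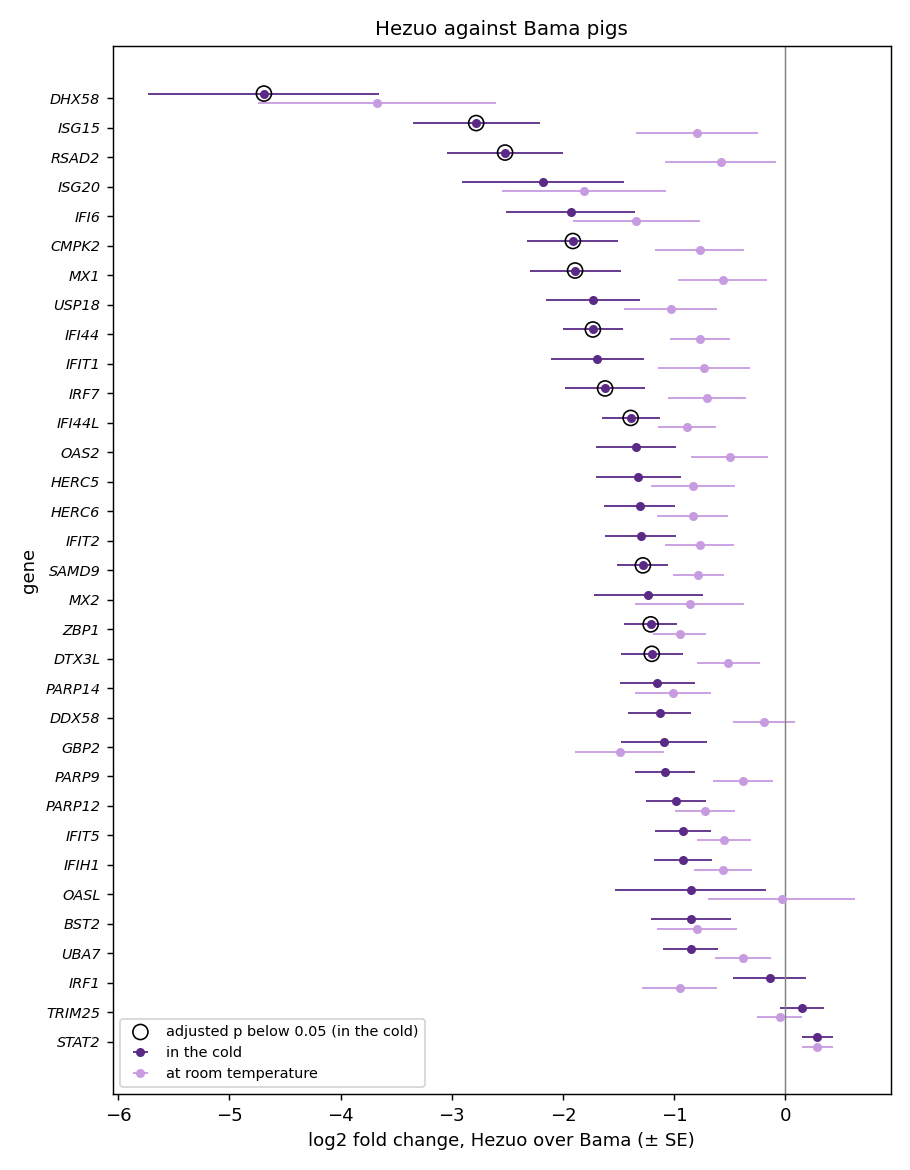
Log2 fold change, Hezuo over Bama, with its SE for 33 members in the cold (dark) and at room temperature (pale), sorted by the value in the cold. Rings mark an adjusted p below 0.05, and IRF9, at 0 in Hezuo livers, is not drawn. Values in the cold lie left of 0 except for STAT2 and TRIM25, both of which turn negative when library totals alone set the scale.

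At room temperature, edgeR called 0 of the 34 members between Hezuo and Bama livers, against 1.08% of all genes tested. The smallest adjusted p was 0.0696, and 18 members had an unadjusted p below 0.05, all lower in Hezuo (9.9% of all genes tested were lower at that level). DESeq2 called 5 lower (GBP2, IFI44L, PARP14, SAMD9 and ZBP1). Of all gene rows it called 500 lower and 4.83% in either direction. The 18 became 7 without Hezuo room-temperature pig 3, 9 without Hezuo room-temperature pig 1, 9 without Bama room-temperature pig 1 and 4 with Y-linked RNA as a covariate. The log2 fold change was negative for 33 of 34 members (50.4% of all genes tested), with a median of -0.77 against -0.00 over all genes tested. In 20 members all Hezuo values lay below all Bama values, which held for 10.8% of all genes tested. The T and NK cell list summed to between 92.5 and 135 CPM in Hezuo livers, against 148 to 352 CPM in Bama livers. Its median log2 fold change was -1.37. By edgeR 1 of its 14 rows, CD8A, was called lower in Hezuo and all 14 had an unadjusted p below 0.05, while DESeq2 called 12. The hepatocyte list summed to between 153333 and 174722 CPM in Hezuo livers, against 112865 to 125991 CPM in Bama livers, with 0 of 9 rows called by edgeR, 3 below an unadjusted p of 0.05 and 2 (APOA1 and CPS1) called by DESeq2. The part of both cell types in these values was not tested.

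The response to cold was then followed within each breed. In Hezuo pigs, edgeR called 0 of 34 members, against 0.281% of all genes tested. An unadjusted p below 0.05 was reached by 1 member, TRIM25 (15.6% of all genes tested), and DESeq2 called 0 (2.45% of all gene rows). The median log2 fold change, cold over room temperature, was 0.20 against -0.01 over all genes tested, 26 members were positive (48.4% of all genes tested), and the members ran from -0.50 (RSAD2) to 0.63 (TRIM25). The median was 0.01 without Hezuo cold pig 2, 0.05 without Hezuo room-temperature pig 3, 0.31 without Hezuo room-temperature pig 2 and 0.32 without Hezuo cold pig 1. In 3 members, DDX58, IFIH1 and TRIM25, all cold values lay above all room-temperature values, near the 10.8% of all genes tested, and STAT2 was the 1 member with all cold values below (10.9% of all genes tested).

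In Bama pigs, edgeR also called 0 of 34 members, against 0.924% of all genes tested, but 19 members had an unadjusted p below 0.05, all higher in the cold, against 7.78% of all genes tested. The smallest adjusted p was 0.0649, for DDX58. DESeq2 called 6 members higher (DDX58, IFI44, IRF9, ISG15, MX1 and RSAD2), against 3.22% of all gene rows called in either direction. Fold changes were positive on the log2 scale for 31 of 34 members (48.5% of all genes tested), and the median was 0.74 against -0.01 over all genes tested. In 9 members all cold values lay above all room-temperature values, which held for 11.2% of all genes tested. IRF9 was bound to be higher in the cold, since it passed the filter on low counts through the cold Bama livers alone. It is counted in the 19, the 6, the 31 and the 9 members above. MX1 averaged 140 ± 88.6 CPM in the cold and 45.9 ± 11.9 CPM at room temperature (SD, n = 3 each), a log2 fold change of 1.61 ± 0.41 (adjusted p = 0.0984). ISG15 averaged 28.7 ± 21.5 CPM in the cold and 8.77 ± 1.68 CPM at room temperature, a log2 fold change of 1.71 ± 0.54 (adjusted p = 0.162).

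Without Bama cold pig 1 the median log2 fold change in Bama pigs was 0.38, and 4 members had an unadjusted p below 0.05. That number was 12 without Bama room-temperature pig 2. With Y-linked RNA as a covariate the median was 0.55, in a fit that in effect sets cold pig 2 alone against the room-temperature livers. Cold and the presence of Y-linked RNA can thus hardly be told apart in Bama pigs. IRF1, GBP2 and STAT2 were the 3 members with a negative value in Bama pigs, at -0.32 ± 0.33, -0.31 ± 0.38 and -0.22 ± 0.14. Kupffer cell and macrophage markers summed to between 2931 and 5226 CPM in Bama cold livers, against 2059 to 3144 CPM at room temperature, with 0 of 10 rows called by edgeR, 2 below an unadjusted p of 0.05 and 2 (CD163 and VSIG4) called by DESeq2. ALB made up 1.53%, 3.14% and 7.12% of gene counts in Bama cold livers, against 8.24% to 8.67% at room temperature. Of 9 hepatocyte rows edgeR called 2, SERPINA1 and TF, lower in the cold, and the list had a median log2 fold change of -1.10. An unadjusted p below 0.05 was reached by 7 of these rows, and DESeq2 called 5 (CPS1, HNF4A, SERPINA1, TF and TTR). The stellate and mesenchymal list (8 rows, none at 0) summed to between 569 and 999 CPM in Bama cold livers, against 1776 to 3537 CPM at room temperature, with COL3A1 lower in the cold. The part of these cells in the response was not tested.

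**Figure D4:**
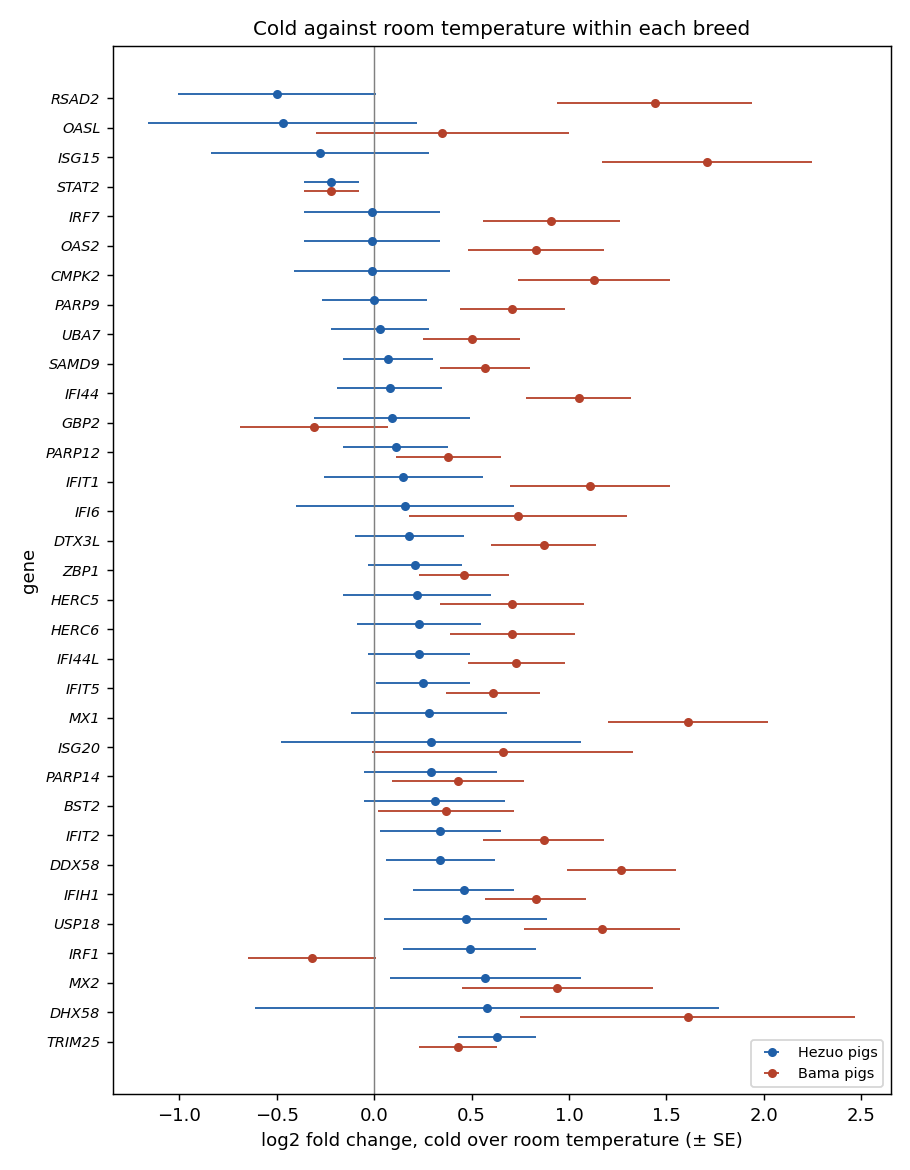
Log2 fold change, cold over room temperature, with its SE for 33 members in Hezuo pigs (blue) and Bama pigs (red), sorted by the Hezuo value. IRF9 is not drawn. Values of Bama pigs lie right of those of Hezuo pigs for most members, and no member had an adjusted p below 0.05 in either breed.

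Whether cold acted differently in Hezuo and Bama pigs was tested directly. By edgeR, 0 of 34 members were called, against 0.00739% of all genes tested. The smallest adjusted p was 0.493 (RSAD2, -1.94 ± 0.71, Hezuo minus Bama), and DESeq2 called 0 (0.633% of all gene rows). An unadjusted p below 0.05 was reached by 5 members (8.02% of all genes tested). The difference was negative for 30 of 34 members (50.3% of all genes tested) with a median of -0.52, and without Bama cold pig 1 it was negative for 20 with a median of -0.09. The 30 include IRF9, which passed the filter on low counts through the cold Bama livers alone. The 5 became 0 without Bama cold pig 1, 1 without Hezuo cold pig 1, 1 without Bama room-temperature pig 3, 2 without Hezuo cold pig 3, 2 without Hezuo room-temperature pig 2, 13 without Bama cold pig 3 and 0 with Y-linked RNA as a covariate. The median was -0.77 without Hezuo cold pig 2, -0.80 without Bama cold pig 3 and -0.31 without Hezuo room-temperature pig 2. The breed differences in the cold and at room temperature were thus not shown to differ for any member.

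Averaged over both breeds, 1 of 34 members was higher in the cold, against 1.95% of all genes tested called higher and 3.89% called in either direction. It was DDX58, which averaged 81.2 ± 10.3 CPM in the cold and 64.3 ± 8.47 CPM at room temperature in Hezuo livers (SD, n = 3 each). In Bama livers it averaged 177 ± 90.9 CPM in the cold and 73.5 ± 9.53 CPM at room temperature. The averaged log2 fold change was 0.80 ± 0.20 (adjusted p = 0.0456). The call held in 3 of 12 fits without 1 library, those without a cold Bama pig, and was lost in the other 9, so any Hezuo library or any Bama room-temperature library decided it (adjusted p up to 0.114). It was also lost with the replicate number as a block (0.78, adjusted p = 0.0696) and with Y-linked RNA as a covariate (0.58, adjusted p = 0.366). Averaged over breeds, 4 of 9 hepatocyte rows were called (3 lower and 1 higher in the cold, among SERPINA1, HNF4A, TF and TTR), VSIG4 of the 10 Kupffer cell rows was higher, and DCN, COL3A1 and COL1A1 of the 8 stellate and mesenchymal rows were lower. The part of these cells in the DDX58 call was not tested. DESeq2 called 4 members, DDX58, IFIH1, MX1 and TRIM25, against 6.92% of all gene rows called in either direction. By edgeR, 11 members had an unadjusted p below 0.05 (23.5% of all genes tested).

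**Figure D5:**
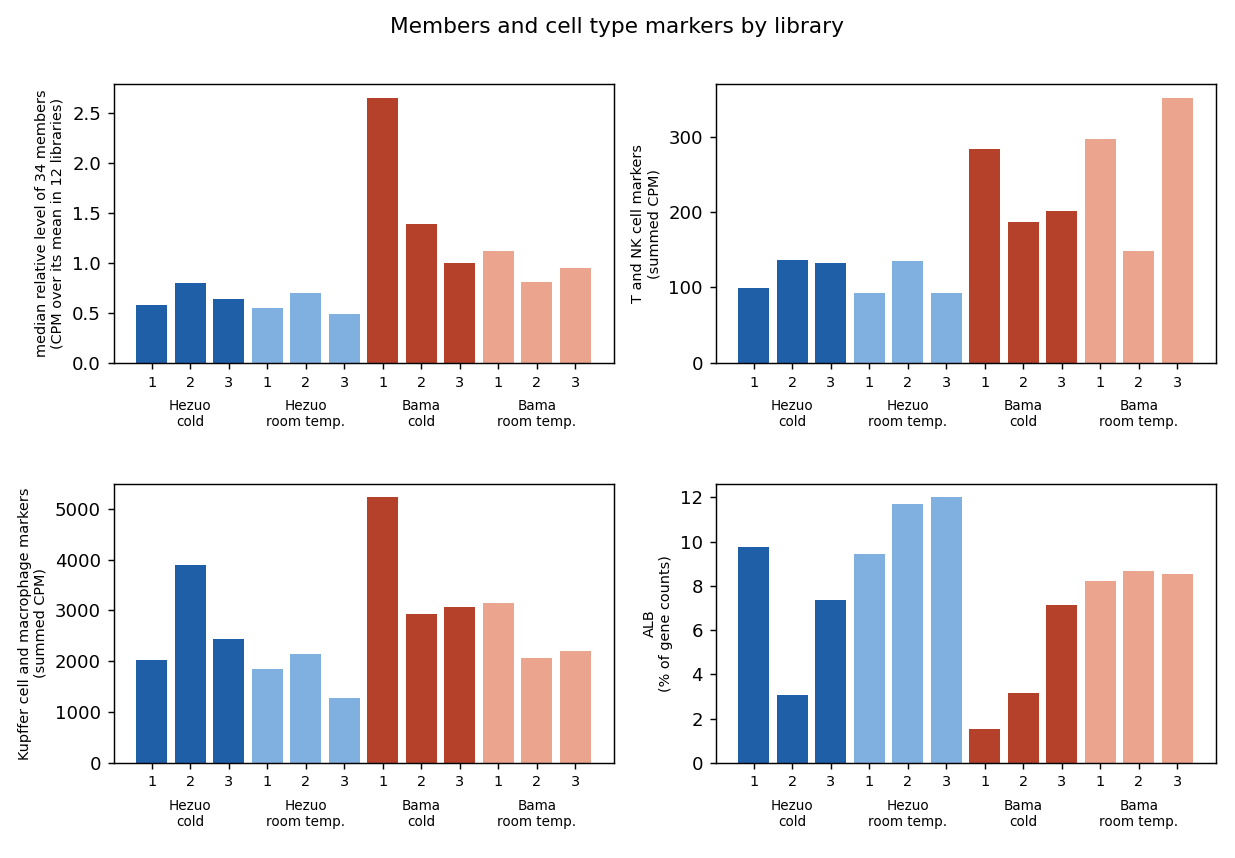
Bars for each of the 12 livers, by group and pig: the median over 34 members of a member's CPM divided by its mean over all livers, the summed CPM of the T and NK cell markers and of the Kupffer cell and macrophage markers, and ALB as a percent of gene counts. Bama cold pig 1 has the highest median (2.65), the highest Kupffer cell sum and the lowest ALB share.

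The level of the whole set differed from animal to animal. The median level of a member relative to its mean over all livers was 0.574, 0.795 and 0.636 in Hezuo cold livers, against 2.65, 1.39 and 1.0 in Bama cold livers. At room temperature it was 0.549, 0.693 and 0.491 in Hezuo livers, against 1.12, 0.809 and 0.952 in Bama livers. All 6 Hezuo livers lay below all 6 Bama livers. Within the cold Hezuo group, pig 2 was the highest for 23 of 34 members, and it also had the lowest ALB share (3.05%) and the highest Kupffer cell sum (3894 CPM) of that group. Within the cold Bama group, pig 1 was the highest for 32 members and pig 3 the lowest for 31, while ALB made up 1.53% and 7.12% of their counts.

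The genes upstream of the members were mostly measured without a call. A list of 100 further pathway names had 77 rows, and 66 were tested. Of 11 rows for interferon genes, 10 had 0 counts in all 12 livers, among them IFNB1, IFNE, IFNK and the interferon alpha genes. A count of 0 allows up to 3 counts per library, or 0.0943 to 0.143 CPM. IFNG, interferon gamma, had 7, 9 and 13 counts in Hezuo cold livers, against 62, 43 and 19 counts in Bama cold livers. At room temperature, IFNG had 10, 5 and 12 counts in Hezuo livers, against 82, 29 and 93 counts in Bama livers. All Hezuo livers lay below all Bama livers, and IFNG was called by DESeq2 at both temperatures but not by edgeR (-1.90 ± 0.58 in the cold, adjusted p = 0.0937, and -2.41 ± 0.58 at room temperature, adjusted p = 0.0625).

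By edgeR, 0 of 5 interferon receptors were called in any of the 6 comparisons, and likewise 0 of 5 genes of JAK-STAT signalling, 0 of 14 genes of interferon induction and 0 of 7 negative regulators. Over the 6 comparisons the smallest adjusted p was 0.167, 0.0650, 0.0525 and 0.105 in these 4 lists, and in the comparison of breeds in the cold 0, 2, 5 and 1 of their genes had an unadjusted p below 0.05. There DESeq2 called 3 genes of interferon induction (CGAS, IRF8 and TICAM1) and 0 of the other lists. Its calls included TICAM1 and TLR8 between breeds at room temperature, and TYK2, IRF8 and CISH for cold averaged over breeds.

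Of 34 tested genes on a list of other interferon-induced genes, edgeR called 5 lower in Hezuo than in Bama livers in the cold. At room temperature it called 1 lower, and 0 were higher in either. IDO1, which passed the filter on low counts through the Bama livers alone, is among the 5 and is the 1 called at room temperature. Of all genes tested, 0.961% were called lower in the cold, and 1.08% in either direction at room temperature. An unadjusted p below 0.05, in either direction, was reached by 20 in the cold and 17 at room temperature. Of all genes tested, 9.92% and 9.9% were lower at that level. Those shares leave out the genes that were higher, and the shares in either direction are larger. They are therefore no like-for-like background for the 20 and the 17. DESeq2 called 14 and 10, against 5.69% and 4.83% of all gene rows. The list's median log2 fold change was -0.81 in the cold and -0.65 at room temperature, against -0.01 and -0.00 over all genes tested. ADAR, which edits double-stranded RNA, had 47.0, 54.2 and 47.5 CPM in Hezuo cold livers, against 118, 86.6 and 76.2 CPM in Bama cold livers (-0.91 ± 0.17, adjusted p = 0.0222). For ADAR the cold groups did not overlap, and at room temperature the breeds overlapped. IFITM3, which blocks virus entry from endosomes, had 41.9, 72.8 and 48.5 CPM in Hezuo cold livers, against 243, 141 and 94.2 CPM in Bama cold livers (-1.55 ± 0.35, adjusted p = 0.0411). DDX60, a helicase, had 8.6, 11.1 and 7.43 CPM in Hezuo cold livers, against 65.6, 29.0 and 15.3 CPM in Bama cold livers (-2.02 ± 0.46, adjusted p = 0.0467). Neither of these genes overlapped between the cold groups.

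PNPT1, a mitochondrial ribonuclease, had 12.7, 13.8 and 15.4 CPM in Hezuo cold livers, against 24.2, 19.0 and 19.6 CPM in Bama cold livers (-0.58 ± 0.14, adjusted p = 0.0496). It was also higher in the cold averaged over both breeds (0.40 ± 0.10, adjusted p = 0.0483). IDO1, which interferon gamma induces to break down tryptophan, had 0.190, 0.259 and 0.490 CPM in Hezuo cold livers, against 4.79, 1.15 and 2.23 CPM in Bama cold livers (-3.08 ± 0.72, adjusted p = 0.0467). At room temperature, IDO1 had 0.0863, 0.136 and 0.526 CPM in Hezuo livers, against 2.58, 1.67 and 5.30 CPM in Bama livers (-3.67 ± 0.75, adjusted p = 0.0455). The breeds did not overlap, and IDO1 was the 1 gene of this list called by edgeR at room temperature. IDO1 passed the filter on low counts through the Bama livers alone, so its calls are given as a description. In the cold, ADAR was called in 9 of 12 fits without 1 library, and IFITM3, DDX60, IDO1 and PNPT1 in 4, 2, 4 and 1. The call of IDO1 at room temperature and that of PNPT1 over both breeds each held in 3 of 12. Each of the 5 calls in the cold was lost without Bama cold pig 1, Hezuo cold pig 1 or Hezuo cold pig 3.

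The circRNA table gave a second readout of the same loci. A circRNA is a closed loop formed by back-splicing, and reads across the junction are what is counted. Of 24177 circRNAs, 46 had a member as host gene, from 16 members, with a median of 5.0 counts over all 12 livers against 7.0 over all circRNAs. PARP12 hosted 7 of them with 147 counts in all, and DDX58 hosted 9 with 64 counts. The most abundant came from PARP12 on chromosome 18 (9681517 to 9697997 in the deposited table, whose genome build is not given in the sources used here) and had 44 counts. Of 16 tested, 0 were called by edgeR in any of the 6 comparisons, against 0.421% of all circRNAs tested between breeds in the cold, 0.454% between breeds at room temperature, 0.0886% and 0.155% for cold in Hezuo and in Bama pigs, 0.0886% for the difference in response and 0.199% for cold averaged over breeds. In those 6 comparisons 0, 3, 2, 1, 0 and 4 of the 16 had an unadjusted p below 0.05. The share of all circRNAs at that level was not taken, so these counts have no background to be read against. DESeq2 was not run on circRNAs. Per 100000 back-splice counts, member circRNAs took 42.3, 87.1 and 70.9 in Hezuo cold livers, against 94.6, 108 and 76.1 in Bama cold livers, and the groups overlapped. Counts of this size limit what could be detected.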

How the data were processed

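Livers of 12 pigs, 3 per group, were profiled as total RNA depleted of ribosomal RNA, with the second cDNA strand digested, per the labels' protocols. The labels number separate pigs, so p-values measure the spread between animals. The authors deposited estimated counts and FPKM values per gene, and back-splice counts and RPM values per circRNA. Read trimming with fastp is named in the submitters' processing notes. No source used here gives the aligner, counter, circRNA caller, genome build or any use of strand in counting, so reads of overlapping genes and of close copies (MX1 and MX2, GBP1 and GBP2, IFI44 and IFI44L, the IFIT, HERC and OAS genes) may be shared between them.

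Estimated counts were rounded to whole numbers (9.48% of nonzero counts were fractional), and every row carried a gene identifier. edgeR 4.0.16 (R 4.3.3) fitted a robust quasi-likelihood model with 4 groups to all 12 libraries (8 residual degrees of freedom), with TMM factors of 0.874 to 1.197 and filterByExpr (minimum count 10, minimum total 15). Calls needed a Benjamini-Hochberg adjusted p below 0.05 over 13532 genes. SE was taken from the log2 fold change and its F statistic (its size over the root of F). CPM use TMM library sizes. circRNAs with at least 2 counts in 3 libraries and 10 in all (9032) were tested alike. FPKM values, as the authors deposited them, served only to order genes by level, and RPM values, as deposited, were not used in any test. The fit was tested on simulated counts.

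Values in every liver are given for the 2 members of each of 9 role lists with the highest FPKM, each called member and the 4 largest fold changes per contrast among members averaging 1 CPM or more in the higher of both groups. Members and lists were chosen with earlier results of these data known. Promoters and proteins were not analysed here. Results on 1 gene outside the members are not reported here. Replicates of 1 group differed by 73.8 to 196 in chi-square per degree of freedom, and none were merged. Alternatives were median-of-ratios factors, no scaling factors, no filter, DESeq2 1.42.0, a replicate block, a Y-linked covariate, 2-group fits and each library left out. Floors of 3 counts cover counting error only.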

Additional observations from a re-analysis of the deposited data

How the results depend on the processing

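Counts were low for IRF9, ISG20, OASL, IFNG and the member circRNAs, and each group had 3 livers. Median-of-ratios factors and no filter gave 12 and 11 members called between breeds in the cold, against 12, and moved no count by more than 1.5 times. Counts of members called below run in the order Hezuo against Bama in the cold, at room temperature, cold in Hezuo, cold in Bama, difference in response and cold averaged over breeds, where they were 12, 0, 0, 0, 0 and 1. DESeq2 called 27, 5, 0, 6, 0 and 4, and the Y-linked covariate 3, 0, 0, 0, 0 and 0. Library totals without scaling factors, chosen after seeing the data, called 28, 1, 0, 1, 0 and 3, while the median log2 fold change of all genes between breeds in the cold moved to -0.32 and that of the members to -1.61. Fits of only the 2 groups compared called 0 members in either breed. Leaving out 1 library gave 0 to 24, 0 to 2, 0 to 0, 0 to 1, 0 to 0 and 0 to 2.

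All genes called, in the same order, were 374, 146, 38, 125, 1 and 526 of 13532 tested, while DESeq2 was run on 21169 gene rows. DESeq2 called 1204, 1022, 519, 681, 134 and 1464, and the Y-linked covariate 132, 3, 3, 1, 0 and 6. Library totals called 2178, 318, 53, 287, 1 and 1116. Between breeds in the cold that was 188 higher and 1990 lower, against 244 and 130 with TMM. It was 55 and 263 against 91 and 55 at room temperature, 44 and 9 against 27 and 11 for cold in Hezuo, 228 and 59 against 52 and 73 for cold in Bama, and 896 and 220 against 264 and 262 averaged over breeds. Leaving out 1 library gave 69 to 423, 8 to 593, 0 to 66, 18 to 133, 1 to 23 and 130 to 606. Of member circRNAs 0 were called with median-of-ratios factors, with at least 20 counts in all, with the replicate block and without any single library.

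The replicate block called 8 members between breeds in the cold and 1, TRIM25, averaged over breeds, and 261, 35, 0, 67, 1 and 361 genes. Same-numbered livers correlated at -0.198 to 0.148, 3 of 18 pairs were above 0.1 and 5 of 12 livers correlated best with their own number, so the numbers were not taken as pairs. These pairs include ones across breeds. Within a breed, pigs 1, 2 and 3 gave 0.138, 0.148 and 0.022 in Bama and -0.083, 0.079 and -0.014 in Hezuo.

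Of 990 single log2 fold changes under alternatives, 837 had the same direction and side of the threshold, 95 were no longer called, 53 were newly called and 5 reversed. The reversed values, between breeds in the cold, were IRF1 at 0.08 without Bama cold pig 1 and 0.01 without Hezuo cold pig 2 (range -0.51 to 0.08 without 1 library), OASL at 0.27 without Bama cold pig 1 (range -1.51 to 0.27), and STAT2 at -0.01 and TRIM25 at -0.16 with library totals. The causes were not tested.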
